A study of Caenorhabditis elegans with 4 samples.

Results

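The regions described here are the ChIP-seq peaks of a GFP-tagged factor, labelled ZTF-11, that lie in the central parts of autosomes II, III, IV and V of Caenorhabditis elegans embryos. Members were chosen by position alone: the midpoint of a peak of the combined list had to lie in the middle 50% of its chromosome. Chromosome length was taken from the chromosome start to the highest peak end of any list. The limits on the WormBase WS180 build were 3815830 to 11447500 on II, 3428300 to 10284900 on III, 4319690 to 12959100 on IV and 5210320 to 15631000 on V. Of the 542 peaks of the combined list, 202 were members, of which II held 52, III 58, IV 43 and V 49. They were set against the 155 peaks of II to V outside these limits, called outer peaks, and against the 122 peaks of X. Peaks of chromosome I belonged to none of these parts. They entered only the ranks, the median width and the shares of the whole list.

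The 4 samples were 2 ChIP replicates and 2 inputs from strain OP236, whose genotype is unc-119(ed3) III with the transgene wgIs236. The transgene joins ekl-2 to TY1, EGFP and FLAG tags and carries unc-119(+), so an unc-119 mutation and its rescuing copy were shared by ChIP and input. Embryos of a mixed male and hermaphrodite population, from worms kept at 20 °C, were fixed with 2% formaldehyde, and chromatin was collected through the GFP tag. The transgene was introduced by bombardment, and the ChIP collected only protein that carried its tag. Titles call the tagged protein ZTF-11 and the genotype calls it ekl-2; whether both names stand for 1 gene is not given in the labels. Peak lists were analysed for replicate 1, for replicate 2 and for their combination, and their only measured value was a q-value, the false discovery estimate of each peak. Read depth was unknown, no list of the inputs was analysed, and the labels do not say whether the replicates came from separate cultures. Whether the inputs entered the calling of the peaks is not given in the sources used here.

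ZTF-11 is a MYT1-family zinc finger protein with a known role in neurogenesis. In C. elegans the middle of each autosome recombines rarely and is rich in conserved and essential genes. The arms recombine more, hold more repeats and carry more of the H3K9 methylation typical of heterochromatin. The X chromosome lacks such a sharp division and is subject to dosage compensation. The limits used here split each chromosome from its start to its highest peak end and are not the boundaries of the recombination domains. Gene positions and sequence on WS180 were not used here, so no peak was assigned to a gene and no bases are shown.

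In the 4 central parts together, peaks numbered 6.02 per Mb, against 4.62 per Mb in the outer parts and 6.98 per Mb on X. Central density was 8.46 per Mb on III, 6.81 on II, 4.98 on IV and 4.70 on V, against outer densities of 7.001 on III, 5.77 on II, 4.51 on IV and 2.30 on V. Each of these 4 chromosomes therefore held more peaks per Mb inside than outside the limits. The widest gap was on V, with 49 peaks inside and 24 outside. The densities by chromosome were not tested. The centre held 56.6% of the 357 combined peaks of II to V (95% Wilson interval 51.4 to 61.6%). In the replicate lists the central share was 52.3% of 132 peaks for replicate 1 (43.8 to 60.6%) and 55.2% of 96 peaks for replicate 2. Intervals of shares take each peak as an independent count and hold no error between samples. The longest stretches of the centre without a peak midpoint were 1365 kb on V, 1087 kb on IV at its right limit, 1031 kb on III and 492 kb on II.

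**Figure D1:**
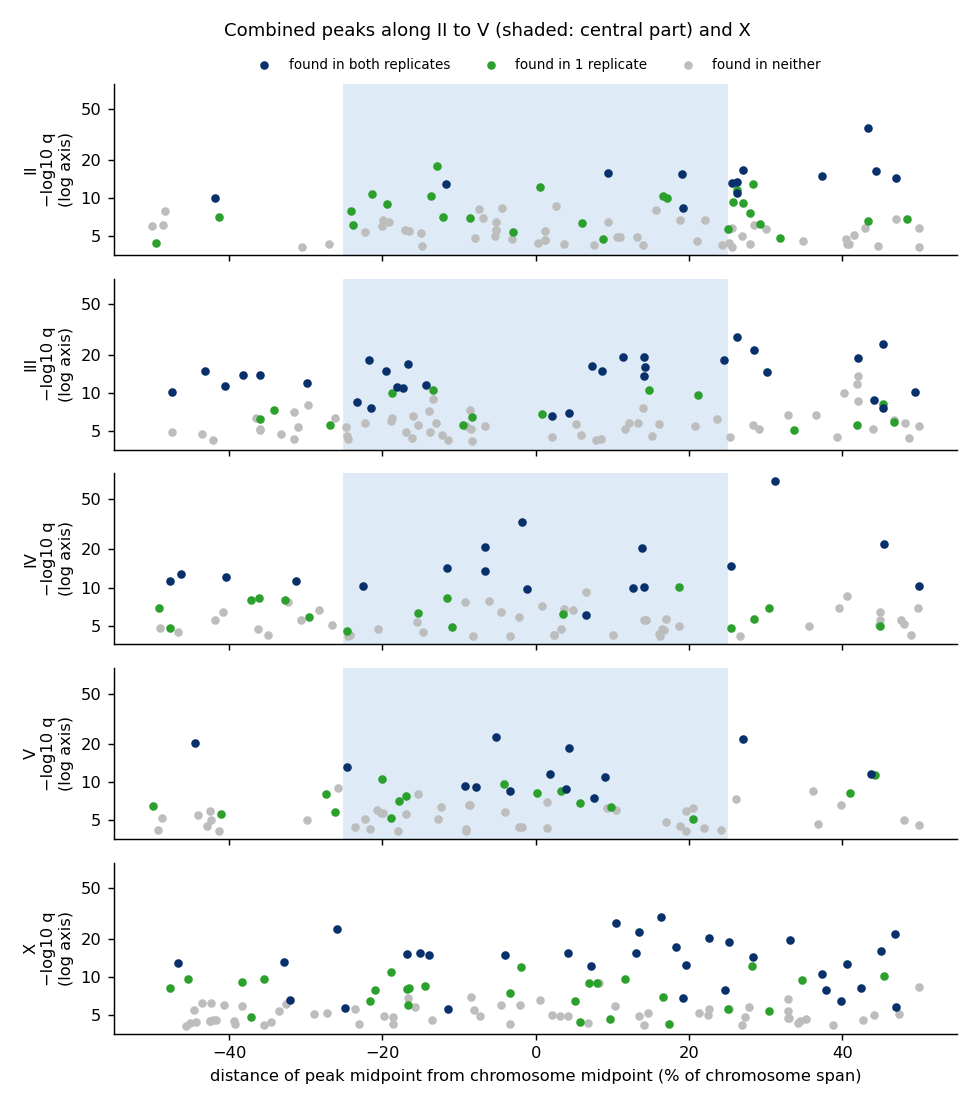
Each point is a peak of the combined list, placed by the distance of its midpoint from the chromosome midpoint in % of the chromosome span and by −log10 q on a log axis, for II, III, IV, V and X. Shading marks the central 50% of II to V, and colours give the replicate lists in which the peak was found; on II the centre held 4 peaks found in both replicates, on III 17.

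The strongest central site lay on IV from 8333902 to 8334720 and ranked 4 of 542, with q = 1.98e-33 over a width of 819 bp. It was among the 3 strongest peaks of either replicate list, at q = 1.82e-19 in replicate 1 and q = 1.33e-19 in replicate 2. The next on IV were 7486166 to 7486598 (rank 16, q = 1.47e-21) and 11025749 to 11026405 (rank 17, q = 3.19e-21). Their order differed between replicates: the first had q = 1.12e-10 in replicate 1 and 6.30e-13 in replicate 2, and the second had q = 3.37e-13 in replicate 1 and 8.86e-07 in replicate 2.

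On V the leading site, from 9343129 to 9344490, ranked 11 with q = 2.02e-23 and was 1362 bp wide. The replicate peaks inside it were shorter, at 575 bp in replicate 1 (q = 1.48e-09) and 853 bp in replicate 2 (q = 1.33e-13). The next site on V, 11313968 to 11314447, ranked 26 with q = 1.76e-19. The next after it on V, 5284007 to 5285455, ranked 63 with q = 6.41e-14 and was the widest central peak at 1449 bp. Replicate 1 gave this site a smaller q than the combined list did (2.32e-14, width 1446 bp), whereas replicate 2 gave 6.61e-11 (width 1288 bp). It was the exception: for 40 of the 41 central peaks found in both replicates, the combined q was smaller than either replicate q.

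Chromosome III supplied 6 of the 12 strongest central peaks, although none of them reached the first 20 ranks of the combined list. Its leading sites were 8799727 to 8800749 (rank 22, q = 4.82e-20), 8416793 to 8417922 (rank 23, q = 7.62e-20) and 10224465 to 10225337 (rank 27, q = 6.54e-19). The site at 10224465 was the central peak nearest the right limit on III. It had rank 6 of 197 in replicate 1 (q = 2.70e-17) and rank 22 of 146 in replicate 2 (q = 7.60e-10); the lists differ in length and unknown depth, so no difference in binding is read from these values. The replicate 1 peak spanned 882 bp and the replicate 2 peak 384 bp. The other 3 of these peaks on III were narrow, at 358 bp for 3867384 to 3867741 (q = 8.61e-19), 289 bp for 4568574 to 4568862 (q = 1.74e-17) and 341 bp for 7854438 to 7854778 (q = 7.32e-17). Narrow peaks thus stood among the strongest of the centre, since 3 of the 12 fell below the list's median width of 407.5 bp. Most of the 12 were wide, however: 9 reached that width, against 92 of all 202 central peaks (45.5%).

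Chromosome II had 1 of the 12 strongest central peaks, and it was also the only one of them that was not found in both replicates. This site, 5660976 to 5662364, ranked 29 with q = 1.63e-18 and was 1389 bp wide. Replicate 1 held a 528 bp peak in it with q = 6.68e-09, and replicate 2 listed none. The next on II, 9059817 to 9060865 (rank 39, q = 1.70e-16), was found in both replicates, with q = 8.86e-08 in replicate 1 and 4.95e-11 in replicate 2. The peak after it, 10548400 to 10549640 (rank 42, q = 3.79e-16, width 1241 bp), was found in both, with q = 2.05e-06 in replicate 1 and 1.39e-05 in replicate 2.

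Recurrence was the share of combined peaks that overlapped a peak of a replicate list by 1 bp or more. Of the 202 central peaks, 41 were found in both replicates, which is 20.3% (95% Wilson interval 15.3 to 26.4%), against 21.9% of the outer peaks (34 of 155) and 26.2% of the X peaks (32 of 122). Over the whole combined list, which also holds the peaks of I, this share was 20.8%. The central share was close to that value and was the lowest of the parts compared. The difference was -1.64 percentage points from the outer peaks (95% Newcombe interval -10.3 to 6.76; two-sided Fisher's exact test, p = 0.79, adjusted p = 0.79 over 8 comparisons). From X it was -5.93 points (-15.7 to 3.33; Fisher's exact p = 0.22, adjusted p = 0.59). Neither difference passed the test, and the intervals leave room for differences of several points in either direction.

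A further 26 central peaks were found in replicate 1 only and 11 in replicate 2 only, so 78 of 202 (38.6%, 32.2 to 45.5%) were found in at least 1 list. The corresponding shares were 44.5% of outer peaks, 48.4% of X peaks and 41.0% of the whole list. The other 124 central peaks (61.4%) appeared in the combined list alone. Peaks found in both replicates had a median −log10 q of 12.84, against 7.08 for those in replicate 1 only, 8.25 for those in replicate 2 only and 5.36 for those in neither. The combined list was made from the same ChIP samples, so this order is a description and not independent evidence.

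Recurrence followed rank in the centre as elsewhere. Among the first 50 combined peaks, 16 of 17 central, 13 of 13 outer and 16 of 16 X peaks were found in both replicates. In ranks 51 to 100 the counts were 10 of 16 central, 15 of 20 outer and 7 of 10 X peaks. In ranks 101 to 200 they were 12 of 41, 6 of 27 and 3 of 20, in the same order of parts. The intervals of the 3 parts overlapped in each of these bands. In ranks 201 to 400, 3 of 72 central peaks were found in both (4.17%, 1.43 to 11.5%), against 0 of 61 outer peaks (upper Wilson limit 5.92%) and 6 of 41 X peaks (14.6%, 6.88 to 28.4%). Beyond rank 400 no peak of any part was found in both, 0 of 56 in the centre (upper Wilson limit 6.42%).

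**Figure D2:**
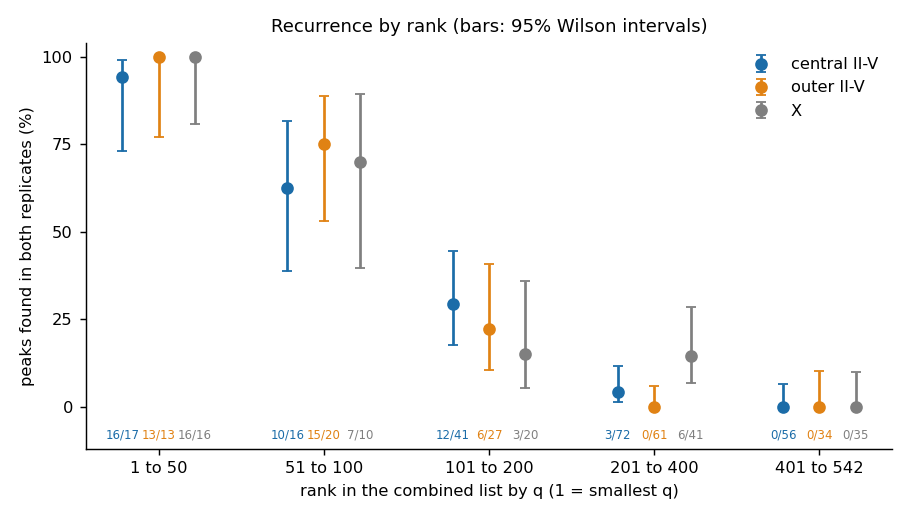
Share of combined peaks found in both replicates (%, vertical axis) by rank in the combined list (horizontal axis), for central II to V, outer II to V and X; points are shares, bars 95% Wilson intervals, and the counts stand below. The central share was 94.1% in ranks 1 to 50, 62.5% in ranks 51 to 100 and 29.3% in ranks 101 to 200.

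Rank 126 was the first central peak that neither replicate list held. It lay on IV from 9773013 to 9774215 (q = 7.07e-10, width 1203 bp). Among outer peaks the first such peak ranked 59, and on X it ranked 132. The next central ones were 5013716 to 5014399 on III (rank 129, q = 9.95e-10) and 3 peaks on II, at 8028122 to 8028635 (rank 141, q = 2.33e-09), 6951359 to 6951745 (rank 149, q = 4.67e-09) and 6491688 to 6492180 (rank 157, q = 6.42e-09). Whether these sites were unbound or undersampled in the single replicates was not tested, since depth is unknown. The site on IV stood 603 bp from the weakest central peak that both replicates shared, 9771996 to 9772409 (rank 274, q = 9.59e-07). The weaker of these neighbours was therefore the one that recurred.

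The share found in both replicates varied among the 4 centres. Both replicates held 17 of 58 central peaks on III (29.3%, 19.2 to 42.0%), 10 of 43 on IV (23.3%, 13.1 to 37.7%), 10 of 49 on V (20.4%, 11.5 to 33.6%) and 4 of 52 on II (7.69%, 3.03 to 18.2%). II thus stood lowest, and its interval did not overlap that of III but overlapped those of IV and V. This order was noticed in the data and carries no test. II and III were set side by side as the lowest and the highest, so no difference is concluded from their intervals. The shares found in at least 1 list lay closer together, at 34.6% for II, 41.4% for III, 37.2% for IV and 40.8% for V. On II, 11 central peaks were found in replicate 1 only and 3 in replicate 2 only, whereas on III these counts were 4 and 3. Peaks of II outside the limits were found in both in 9 of 44 cases (20.5%, 11.2 to 34.5%).

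Replicate peaks were paired where both overlapped the same combined peak, which by itself limits how far apart their midpoints can lie. The midpoints of the 41 peak pairs lay a median of 29 bp apart, with a range of 1 to 248 bp, and 40 of 41 pairs were within 100 bp. For outer peaks the median was 27.8 bp with 26 of 34 pairs within 100 bp, and for X it was 23.2 bp with 27 of 32. Median replicate widths of these central peaks were 356 bp in replicate 1 and 358 bp in replicate 2, against 443 bp in the combined list. The replicate widths were 528 bp and 482 bp for outer pairs and 467.5 bp and 459.5 bp for X pairs. Wider peaks can overlap with midpoints farther apart, so the distances are not a like comparison of the parts. In 25 of the 41 the −log10 q listed for replicate 1 was the larger. Depth is unknown, so neither a difference in binding nor its absence is read from this count. Across these 41 central peaks −log10 q of the replicates had a Spearman coefficient of 0.49, against 0.67 over 34 outer peaks and 0.79 over 32 X peaks. These coefficients are descriptions of 1 pair of samples. All points share the same 2 libraries, and the q-values start at the cut-off of each list.

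**Figure D3:**
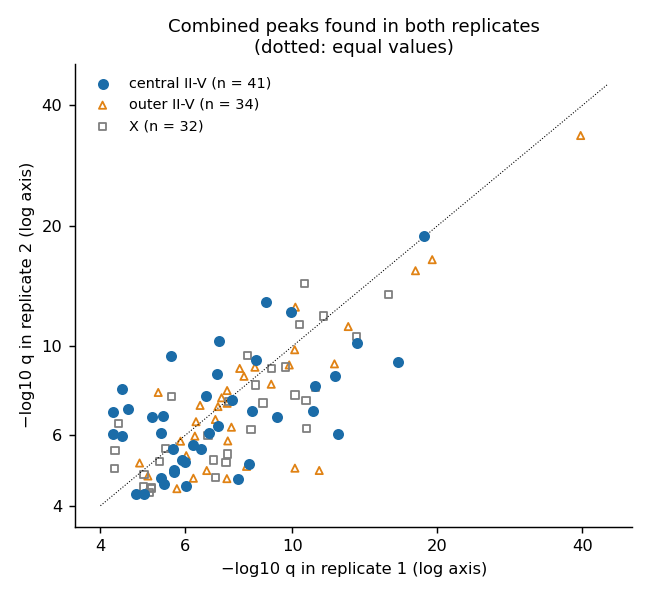
Each point is a combined peak found in both replicates, with −log10 q in replicate 1 (horizontal) and replicate 2 (vertical), both on log axes, for central II to V, outer II to V and X; the dotted line marks equal values. Of the 41 central peaks, 25 lie below the line, and the strongest is at 18.74 and 18.88.

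Seen from the replicate lists themselves, 41 of 69 central peaks of replicate 1 (59.4%, 47.6 to 70.2%) had a partner in replicate 2, against 34 of 63 outer peaks (54.0%) and 32 of 50 X peaks (64.0%). In the other direction 41 of 53 central peaks of replicate 2 (77.4%, 64.5 to 86.5%) had a partner in replicate 1, against 34 of 43 outer peaks (79.1%) and 33 of 42 X peaks (78.6%). The intervals of the 3 parts overlapped in each list.

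Central peaks had a median −log10 q of 6.15 (95% order-statistic interval 5.68 to 6.57), against 6.20 for outer peaks (5.73 to 6.86) and 5.99 for X peaks (5.55 to 6.74). Ranks 1 to 271, which hold 50.0% of the combined list by construction, included 102 of 202 central peaks (50.5%), 82 of 155 outer peaks (52.9%) and 59 of 122 X peaks (48.4%). The central share differed by -2.41 points from outer peaks (-12.7 to 7.98; Fisher's exact p = 0.67, adjusted p = 0.79) and by 2.13 points from X (-8.996 to 13.2; Fisher's exact p = 0.73, adjusted p = 0.79). Neither difference passed the test. Central peaks covered nearly the whole range of ranks, from 4 to 537. Their largest −log10 q was 32.70, whereas the outer peaks included the strongest of the list at 69.06.

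Central peaks were 103 to 1449 bp wide, with a median of 386 bp (343 to 431 bp), against 425 bp for outer peaks (379 to 488 bp, range 156 to 2548 bp) and 418 bp for X peaks (388 to 451 bp, range 150 to 2119 bp). At least the list's median width, 50.0% of all peaks by construction, was reached by 92 of 202 central peaks (45.5%), 83 of 155 outer peaks (53.5%) and 65 of 122 X peaks (53.3%). The difference was -8.00 points from outer peaks (-18.2 to 2.43; Fisher's exact p = 0.14, adjusted p = 0.59) and -7.73 points from X (-18.7 to 3.45; Fisher's exact p = 0.21, adjusted p = 0.59). Central peaks were thus narrower at the median without passing the test in either comparison.

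Central peaks had the lowest median width in both replicate lists too. In replicate 1 the median width was 332 bp for central peaks, 410 bp for outer peaks and 422.5 bp for X peaks. In replicate 2 it was 344 bp, 463 bp and 438.5 bp in the same order of parts. The lists share many of their sites, so these are not independent repeats. By chromosome, the median widths inside and outside the limits were 339 bp and 476 bp on III, 375.5 bp and 407 bp on II, 433 bp and 447 bp on IV, and 382 bp and 381 bp on V. The gap in width was therefore largest on III, where 22 of 58 central peaks (37.9%) and 30 of 48 outer peaks (62.5%) reached the list's median width. The intervals of the 2 medians on III overlapped (304 to 427 bp inside, 381 to 630 bp outside). Without III the difference in that share from outer peaks was -0.92 points (-13.2 to 11.4, Fisher's exact p = 0.90), against -8.00 points with it. It was -8.29 points without II, -11.3 without IV and -10.6 without V (Fisher's exact p = 0.21, 0.068 and 0.095, unadjusted). III was singled out after its gap in width was seen.

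**Figure D4:**
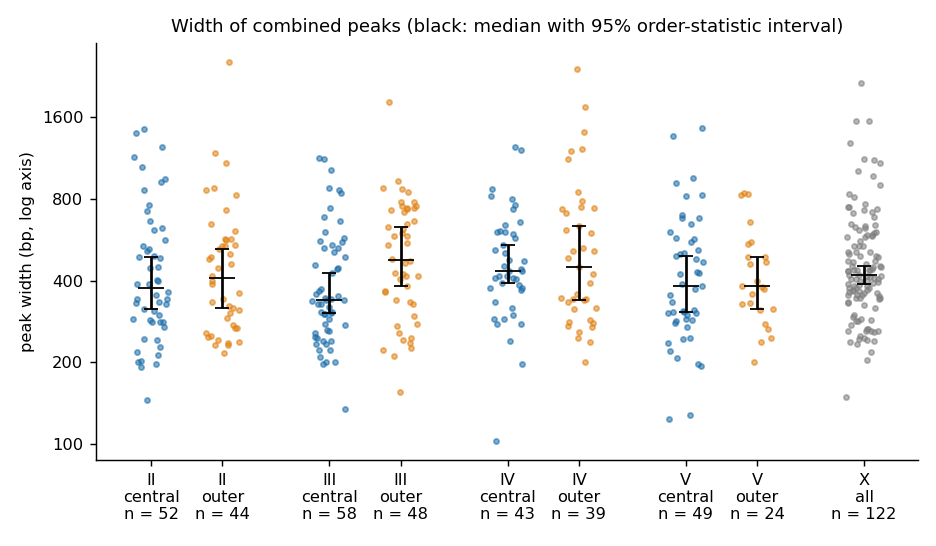
Widths of combined peaks (bp, log axis) inside and outside the central limits of II, III, IV and V, and on X; each point is a peak, and black marks give the median with its 95% order-statistic interval. On III the median was 339 bp inside the limits and 476 bp outside.

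The 5 widest central peaks were the site on V at 5284007, 9061164 to 9062599 on II (1436 bp, rank 238, q = 3.68e-07), the sites on II at 5660976 and on V at 9343129, and the site on II at 10548400. Only the 1436 bp peak was absent from both replicate lists. It lay 298 bp from the peak at 9059817 on II, which both replicates held, and this was the smallest distance between any central peak and its nearest neighbour. Over 1 kb in width were 12 of 202 central peaks (5.94%), 10 of 155 outer peaks (6.45%) and 8 of 122 X peaks (6.56%).

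The distance from a central peak to the nearest other peak of its chromosome, edge to edge, had a median of 48.1 kb (34.4 to 66.5 kb), against 61.1 kb for outer peaks (31.4 to 80.9 kb) and 61.7 kb for X peaks (38.7 to 70.0 kb). A neighbour under 5 kb away was present for 36 of 202 central peaks (17.8%, 13.2 to 23.7%), 33 of 155 outer peaks (21.3%) and 17 of 122 X peaks (13.9%), against 17.3% of the whole list. The difference was -3.47 points from outer peaks (-11.96 to 4.72; Fisher's exact p = 0.42, adjusted p = 0.70) and 3.89 points from X (-4.73 to 11.6; Fisher's exact p = 0.44, adjusted p = 0.70). Neighbours come in pairs, so these intervals are too narrow, and neither difference passed. The order of the medians differed between chromosomes. The median distance inside and outside the limits was 56.2 kb and 10.7 kb on II and 46.8 kb and 30.8 kb on III. It was 39.3 kb and 80.9 kb on IV, and 74.5 kb and 120.0 kb on V. By these medians, the nearest peak was farther away for central than for outer peaks on II and III and nearer on IV and V. The intervals of the inside and outside medians overlapped on each of these chromosomes. The differences by chromosome were not tested, so none is concluded. II and III held more peaks per Mb inside the limits than outside, so their longer central distances do not mean sparser central peaks.

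At the shortest distances the centre and X differed by more. A neighbour under 1 kb away was present for 17 of 202 central peaks (8.42%, 5.32 to 13.1%), 17 of 155 outer peaks (10.97%) and 2 of 122 X peaks (1.64%, 0.45 to 5.78%). The share over the whole list was not calculated at this distance. The difference between centre and X was 6.78 points (1.61 to 11.6, Fisher's exact p = 0.013, unadjusted, 1 of 92 alternative values). Here too neighbours come in pairs or larger groups and are not independent counts. The interval is therefore too narrow and the p-value too small, so no difference is concluded. Of the 17 central peaks, 4 recurred in both replicates, 1 recurred in replicate 2 only and 12 in neither. Among all 202 central peaks these counts were 41, 11 and 124, so recurrence of the 17 is not read as different. No central peak of replicate 1 or replicate 2 overlapped more than 1 combined peak. Whether such neighbours belong to a single region of enrichment was not tested.

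**Figure D5:**
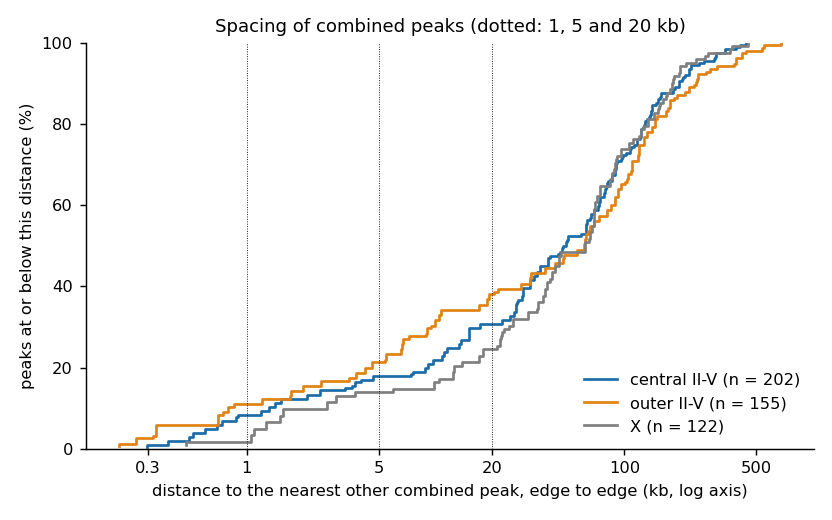
Cumulative share of combined peaks (%, vertical axis) by distance to the nearest other combined peak, edge to edge (kb, log axis), for central II to V, outer II to V and X; dotted lines mark 1, 5 and 20 kb. Under 1 kb the curves stand at 8.42% in the centre, 10.97% outside it and 1.64% on X.

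Of the 202 central peaks, 158 stood 10 kb or more from any other peak, and 44 lay in 19 runs, in which neighbouring peaks were under 10 kb apart. Standing alone in this sense were 78.2% of central peaks (72.0 to 83.4%), 68.4% of outer peaks (106 of 155, 60.7 to 75.2%) and 83.6% of X peaks (102 of 122, 76.0 to 89.1%), against 76.9% of the whole list; these differences were not tested. Of the central runs, 14 were pairs and 5 held at least 3 peaks, with 2 of the longer runs on II, 3 on III and none on IV or V. The run on III from 8795381 to 8802310 contained the strongest central site of that chromosome, and its 3 peaks were each found in both replicates. The others were weaker. On II, the 4 peaks from 6827278 to 6839223 (smallest q = 3.77e-07) and the 3 peaks from 7810661 to 7813600 (smallest q = 3.17e-06) were found in neither replicate. On III, the 3 peaks from 4272859 to 4282554 (smallest q = 1.19e-10) and the 3 from 5706271 to 5715953 (smallest q = 3.77e-07) each had 1 member found in replicate 2 only. Recurrence within runs thus ranged from every member to none.

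The peaks next to the limits ranged from rank 27 to 510 inside and from rank 130 to 486 outside. Just inside were 3959741 to 3960083 (rank 166) and 11345560 to 11345705 (rank 503) on II, 3460118 to 3460445 (rank 347) and the site at 10224465 (rank 27) on III, 4390602 to 4390704 (rank 452) and 11871063 to 11872302 (rank 108) on IV, and the site at 5284007 (rank 63) and 15465161 to 15465357 (rank 510) on V. Just outside were 3519071 to 3519393 (rank 486) and 11452949 to 11453283 (rank 301) on II, 3271664 to 3272067 (rank 252) and 10333961 to 10334171 (rank 453) on III, 4049121 to 4049754 (rank 383) and 13028137 to 13028651 (rank 421) on IV, and 5049352 to 5049839 (rank 130) and 15873733 to 15874104 (rank 188) on V. The nearest of these to a limit was the outer peak on II at 11452949, 5.62 kb beyond it. The peaks of II beyond this limit were not counted apart from those at its left end. Both outer parts of II together held 5.77 peaks per Mb, against 6.81 in its centre. The central peak nearest this limit, at 11345560, lay 102 kb inside it. How many peaks a shift of this limit would move was not counted.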

How the data were processed

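Peaks were called with PeakSeq on the WormBase WS180 build, per the file headers and source column. The values are q-values that the authors deposited, 1 per peak, used here as −log10 q to describe or rank peaks inside their own list. The aligner, the PeakSeq settings, the way replicates were combined and the use of input are not given in the sources used here. No read counts were analysed, so depth is unknown. Chromosome span was the highest peak end over the 3 lists, and ties in q were ordered by chromosome and start. The members, groups and named peaks were chosen with earlier results of these data known. Named are the 12 strongest central peaks, the 3 strongest per chromosome, the 5 widest, the 5 strongest found in neither replicate, the peaks next to each limit and the runs of 3 or more. Shares were compared with two-sided Fisher's exact tests on counts of peaks, Benjamini-Hochberg adjusted over 8 comparisons with a threshold of 0.05, with Wilson and Newcombe 95% intervals. Peaks are not samples, so the tests cover counting error only. The functions were tested on simulated lists. Alternatives changed the overlap rule, the peaks, the limits, the thresholds, the chromosomes and the replicates. The software was Python 3.11.15, NumPy 2.4.6, SciPy 1.17.1, pandas 2.3.3 and matplotlib 3.10.9.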

Additional observations from a re-analysis of the deposited data

How the results depend on the processing

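Of 92 alternative values for the 8 differences in shares, 82 kept their direction and their side of an unadjusted threshold of 0.05, 7 turned direction and 3 newly passed; the cause was not tested. In percentage points, found in both against outer peaks became 0.208 with midpoints within 100 bp and 2.14 without chromosome II. Wide peaks against X became 0.641 with a minimum of 600 bp and -16.7 in the stronger 50% by q (Fisher's exact p = 0.041). Strong peaks became 2.17 against outer peaks with the central 40% of the span and -4.97 against X for the strongest 100. Close neighbours against outer peaks became 1.94 with the central 40% and 0.0433 with the central 60%; against X they became 6.78 at 1 kb (Fisher's exact p = 0.013), and 4.67 to 10.1 in the replicate lists, without replicate 1 or replicate 2 (Fisher's exact p = 0.021 without replicate 2). The p-values for close neighbours treat paired peaks as independent and are too small. Finding in at least 1 replicate and widths over 1 kb were added after seeing the data. No paired analysis was possible because no list of the inputs, whose numbers match those of the ChIP samples, was analysed.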

Other observations

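Along the centres, the count of peaks in 5 equal parts from left to right was 18, 15, 4, 15 and 6 on III, 10, 14, 10, 9 and 9 on II, 7, 9, 12, 8 and 7 on IV, and 14, 9, 12, 6 and 8 on V. The middle part of III was thus sparse, and it included much of the stretch without a peak from 5940658 to 6972066. These counts were seen after the data were examined and carry no test.

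A few central replicate peaks had no counterpart in the combined list. Replicate 1 had 2 of 69, at 11042533 to 11043222 on II (q = 1.64e-05) and 8375405 to 8375719 on IV (q = 5.68e-05), and replicate 2 had 1 of 53, at 8927139 to 8927410 on IV (q = 2.85e-05). None of the 3 overlapped a peak of the other replicate.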
